A study of Mus musculus with 6 samples.

Results

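The mitochondrial ribosomal protein genes were followed in mouse macrophage-like cells given an inflammatory stimulus with or without a curcumin emulsion. The mitochondrial ribosome, or mitoribosome, is the translation machine inside the mitochondrion. It makes only the few proteins that the mitochondrial genome encodes, all of them subunits of the respiratory chain and the ATP synthase. Its RNA comes from the mitochondrial genome, whereas each of its proteins is encoded in the nucleus, translated in the cytosol and imported. A large subunit carries the peptidyl transferase centre and the exit tunnel, and a small subunit carries the decoding centre. The genes of both subunits are scattered over the chromosomes, so their mRNA levels have to be set at many separate promoters.

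Members were all rows of the count table whose symbol begins with Mrpl or Mrps followed by a number. This gave 78 of 21604 symbols, of which 49 were Mrpl (large subunit) and 29 were Mrps (small subunit). RefSeq lists all 78 as protein-coding genes, on 17 chromosomes. All 78 passed the filter on low counts, with 156 to 4600 counts per member and library. The symbols do not map perfectly onto the structure: Mrps18a and Mrps30 carry small-subunit names but belong to the large subunit. A separate list held 5 further mitoribosome proteins that carry other symbols. It also named Ict1, an older symbol of the member Mrpl58, which matched no row.

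RNA sequencing covered 6 libraries of RAW 264.7, a mouse monocyte/macrophage line, all given as wild type. The first group of 3 libraries was exposed over 24 h to 100 ng/mL of lipopolysaccharide (LPS), a bacterial product that macrophages sense through a Toll-like receptor. The second group of 3 libraries received the same LPS together with 2 mg/mL PE-CUR, a curcumin-loaded Pickering emulsion, for 24 h. The study addressed the effect of PE-CUR on inflammation and osteoclast formation. LPS is thus shared by both groups, and no untreated, empty-emulsion or free-curcumin libraries were analysed here, so curcumin and its carrier cannot be told apart. The labels describe the cell type as bone marrow macrophage, while the source is the cell line, and they do not say whether replicates were separate cultures. The p-values therefore measure the spread between these libraries, which may be technical.

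Library totals ran from 28530750 to 35276533 counts. All 10 macrophage markers had counts, summing to 11757 to 12249 CPM (counts scaled to library size, here without TMM factors) with LPS and 9751 to 10584 with PE-CUR. The 8 hepatocyte markers, foreign to this line, summed to 46.8 to 64.3 CPM with LPS and 0.0568 to 74.8 CPM with PE-CUR, with none of the 8 at 0 throughout. Their most defining gene, Alb, was counted 1600, 1081 and 1711 times with LPS and 1, 0 and 1648 times with PE-CUR. PE-CUR replicate 3 thus stood with the LPS libraries for Alb. For the mitoribosomal genes it did not: its median log2 difference from the LPS mean was 0.48 over Mrpl genes and 0.47 over Mrps genes, against 0.47 and 0.43 in replicate 1 and 0.45 and 0.46 in replicate 2.

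The stretch upstream of a member's start is shown for 4 members. They had the largest fold change among members with a searched motif there, outside every annotated exon and outside the gene's own RefSeq span. Short stretches were passed over. Members with larger changes and a match elsewhere near a start, such as Mrpl36, Mrpl48 and Mrpl45, are not shown. The 4 shown had log2 fold changes of 0.72, 0.70, 0.49 and 0.45, beside a median of 0.46 over all members. Whether motifs ran with fold change was not tested. The sequences are from RefSeq (assembly GRCm38.p6), each on the strand of its gene. Distances are counted back from the start at which RefSeq's promoter window is set, and capitals mark the motif match. For Mrps27 that start is base 99344786, while a RefSeq transcript begins further upstream at base 99344767, so the printed stretch ends before the latter. Mrps27 is at chr13:99344706-99344766, Mrpl12 at chr11:120484387-120484612 and Mrps18a at chr17:46110754-46110985, all on the plus strand, and Mrpl17 is at chr7:105811100-105811337 on the minus strand.
Mrps27: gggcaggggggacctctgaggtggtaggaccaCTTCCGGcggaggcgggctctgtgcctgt
Mrpl12: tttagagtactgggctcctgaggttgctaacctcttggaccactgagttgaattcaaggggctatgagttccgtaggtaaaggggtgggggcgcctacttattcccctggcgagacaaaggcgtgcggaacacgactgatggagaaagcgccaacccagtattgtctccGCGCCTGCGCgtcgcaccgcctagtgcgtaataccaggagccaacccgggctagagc
Mrps18a: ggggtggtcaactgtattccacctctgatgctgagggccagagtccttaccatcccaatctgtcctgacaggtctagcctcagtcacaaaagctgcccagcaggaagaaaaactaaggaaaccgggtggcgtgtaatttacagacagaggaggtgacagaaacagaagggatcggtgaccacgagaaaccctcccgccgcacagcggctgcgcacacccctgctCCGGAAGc
Mrpl17: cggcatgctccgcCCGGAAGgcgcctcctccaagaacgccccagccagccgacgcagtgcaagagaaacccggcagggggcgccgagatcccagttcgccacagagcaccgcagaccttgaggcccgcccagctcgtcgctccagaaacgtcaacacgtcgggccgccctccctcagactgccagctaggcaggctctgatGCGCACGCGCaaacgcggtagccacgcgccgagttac
CTTCCGG in Mrps27, and CCGGAAG in Mrps18a and Mrpl17, are an ETS-family motif on either strand, beginning 48, 26 and 237 bases before the start. GABPA is an ETS factor known for binding promoters of nuclear genes for mitochondrial proteins. GCGCCTGCGC in Mrpl12 and GCGCACGCGC in Mrpl17 begin 81 and 49 bases before the start. These match the paired core sites of NRF1, GCGC repeated after a spacer of 2 bases; NRF1 is a factor known for the same class of promoters.

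Windows of 250 bases before to 50 bases after the start were listed for 69 of the 78 members, and all motifs were searched on both strands in any window of a gene. CCGGAAG was found in 26 of 69 members (37.7%), against 20.2% of 10343 tested genes and 9.9% of all 27025 genes with a window. AAGATGGC, a YY1 motif, was found in 12 of 69 (17.4%), against 5.3% of tested genes. Cytosolic ribosomal protein genes held the ETS letters in 40.3% and the YY1 letters in 9.7% of 62 genes. The spaced NRF1 letters (GCGC, any 2 bases, GCGC) were in 20.3% of members and 14.6% of tested genes, and the same letters with AT as the spacer in 4.3% and 2.3%. CACGTG, the E-box bound by Myc and Max, was in 7.2% of members and 11.8% of tested genes. A match describes letters in a window and does not show that a factor bound there.

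Most mitoribosomal protein mRNAs were higher with PE-CUR. In an edgeR quasi-likelihood test with Benjamini-Hochberg adjustment over 13014 genes and a threshold of 0.05, 65 of the 78 rose, 4 fell and 9 did not pass. Over all tested genes 30.8% were called higher and 32.7% lower. The rise was moderate, with a median log2 fold change of 0.46 (interquartile range 0.28 to 0.66), or 1.38-fold, beside a median of -0.03 over all tested genes. Calls at or above 1.5-fold higher numbered 27 (15.2% of all tested genes), and at or above 2-fold higher 3 (6.37% of all tested genes). The lowest PE-CUR library lay above the highest LPS library for 67 members (33.3% of all tested genes), and the order was inverted for 5 (35.7% of all tested genes). Here a log2 fold change is always PE-CUR plus LPS over LPS alone, and the value after it is its standard error. In bulk RNA, more cells that express a gene and more RNA per cell cannot be told apart.

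Both subunits had most of their genes higher, and the difference between them was not tested. Of the Mrpl genes, 41 of 49 rose, 3 fell and 5 did not pass, with a median log2 fold change of 0.46. Of the Mrps genes, 24 of 29 rose, 1 fell and 4 did not pass, and the median was also 0.46. Placing Mrps18a and Mrps30 with the large subunit gave 43 of 51 and 22 of 27 rising, with medians of 0.46 and 0.43. The log2 fold changes of members had an SD of 0.343, beside 0.343 for the mitochondrial translation factors, 0.220 for cytosolic ribosomal protein genes and 0.972 over all tested genes, which include genes with far lower counts.

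**Figure D1:**
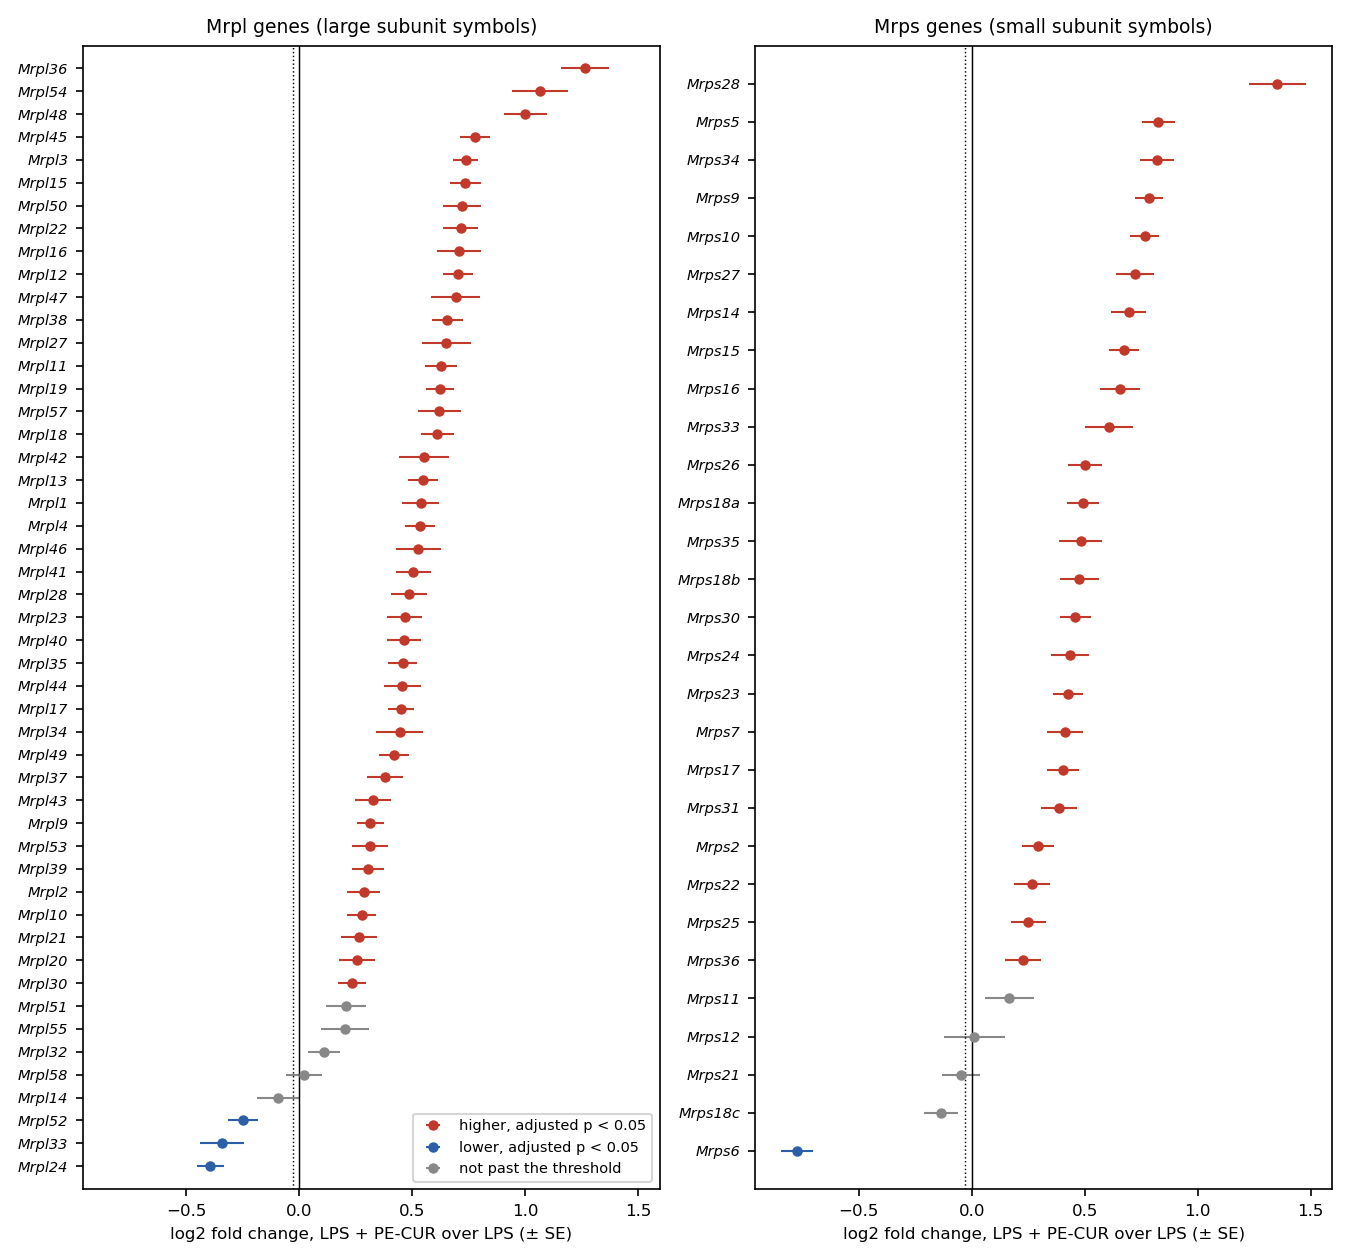
Log2 fold change (PE-CUR plus LPS over LPS) of each Mrpl and each Mrps gene, ordered by size, with bars of 1 SE; the dotted line is the median of all tested genes. Points to the right of 0 are higher with PE-CUR; 71 of the 78 members lie there, and Mrps6 lies farthest to the left.

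The summed level shows the same in every library. Summed over the Mrpl genes, the level was 1767 ± 51.2 CPM (SD, n = 3) with LPS and 2363 ± 47.9 CPM with PE-CUR, a ratio of 1.34. Over the Mrps genes it was 880 ± 25.1 CPM and 1161 ± 15.5 CPM, a ratio of 1.32. All 78 together took 0.270% of counts with LPS and 0.346% with PE-CUR. The level per length, in the authors' FPKM (fragments scaled to transcript length and library depth), averaged over Mrpl and divided by that over Mrps, was 0.936, 0.937 and 0.925 in the LPS libraries and 0.957, 0.964 and 0.9997 in the PE-CUR libraries. The PE-CUR libraries lay above the LPS libraries in this ratio, with no overlap. A mean of FPKM gives most weight to the members with the highest values. Among these, Mrps6 went from 110 to 61.8 FPKM and Mrpl33 from 133 to 101 FPKM. The order of the groups in this ratio rests on Mrps6 and is not kept when that gene is left out. No general shift between the subunits can therefore be read from the ratio.

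**Figure D2:**
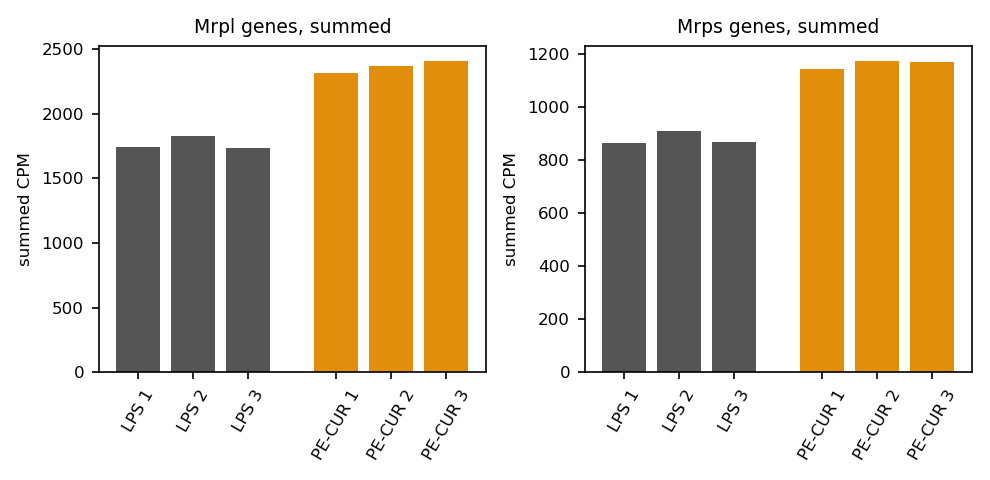
Summed CPM of the 49 Mrpl genes (left) and the 29 Mrps genes (right) in each of the 6 libraries, on axes that start at 0. Each PE-CUR library stands above each LPS library in both panels.

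Among the large-subunit groups, the one listed as stalk rose as a whole. The stalk is the flexible arm that recruits translation factors. The list also holds Mrpl1, whose bacterial counterpart forms a separate stalk. All 6 listed members rose, with a median log2 fold change of 0.58. Mrpl54, a mitochondria-specific protein of the stalk, was at 8.38, 11.5 and 9.18 CPM with LPS and at 19.2, 19.8 and 21.9 CPM with PE-CUR. The groups were far apart, at a log2 fold change of 1.07 ± 0.12 (edgeR adjusted p = 2.35e-05). Mrpl12, the stalk protein that contacts the elongation factors, was at 57.3, 62.4 and 57.3 CPM with LPS and at 92.4, 94.7 and 101 CPM with PE-CUR, a log2 fold change of 0.70 ± 0.06 (edgeR adjusted p = 4.31e-06). Mrpl11, counterpart of a bacterial stalk-base protein, rose by 0.63 on the log2 scale, and Mrpl1 by 0.54. Mrpl53 and Mrpl10 rose less, by 0.31 and 0.28.

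The central protuberance, which faces the small subunit and lies beside the bound tRNAs, had 6 of 7 members higher and 1 lower, with a median log2 fold change of 0.61. Mrpl48 had 16.5, 17.5 and 13.9 CPM with LPS against 31.2, 32.6 and 31.9 CPM with PE-CUR. Every PE-CUR value was well above every LPS value, at a log2 fold change of 1.0 ± 0.09 (edgeR adjusted p = 4.76e-06). Mrpl38, Mrpl27 and Mrpl18 rose by 0.65, 0.65 and 0.61 on the log2 scale, and Mrpl46 and Mrpl40 by 0.53 and 0.46. Mrpl52 went the other way and is described with the falling members.

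The exit-tunnel group surrounds the opening through which the new protein leaves, and 7 of its 8 members rose and 1 fell (median 0.46). Mrpl45, which tethers the ribosome to the inner membrane, had 50.8, 49.9 and 46.0 CPM with LPS and 88.4, 80.2 and 82.9 CPM with PE-CUR. This was a log2 fold change of 0.78 ± 0.07 (edgeR adjusted p = 2.66e-06). Mrpl22 and Mrpl47 rose by 0.71 and 0.69 on the log2 scale. Mrpl44, which has the fold of a ribonuclease, rose by 0.45, as did Mrpl17, while Mrpl23 and Mrpl39 rose by 0.46 and 0.30. Mrpl24 fell.

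The core of the large subunit, including proteins near the catalytic centre, had 13 of 16 members higher, 1 lower and 2 not past the threshold (median 0.47). Mrpl36, the counterpart of the smallest bacterial large-subunit protein, was at 11.9, 15.8 and 13.4 CPM with LPS and at 33.0, 30.5 and 35.1 CPM with PE-CUR. The log2 fold change of 1.26 ± 0.11 (edgeR adjusted p = 2.34e-06) was the largest of any Mrpl gene. Mrpl3, a protein that reaches toward the peptidyl transferase centre, had 55.4, 56.5 and 56.9 CPM with LPS and 93.4, 95.9 and 91.5 CPM with PE-CUR, a change of 0.73 ± 0.06 (edgeR adjusted p = 1.21e-06). Its groups were far apart. Mrpl15, Mrpl16 and Mrpl19 rose by 0.73, 0.70 and 0.62 on the log2 scale, and Mrpl13, Mrpl4, Mrpl28, Mrpl35 and Mrpl34 by 0.55, 0.53, 0.49, 0.46 and 0.44. The smallest rises here were Mrpl2 at 0.28, Mrpl21 at 0.26 and Mrpl20 at 0.25. The call of Mrpl20 did not hold without PE-CUR replicate 3 (edgeR adjusted p = 0.0505).

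Of the other Mrpl genes, 9 of 12 rose and none fell (median 0.35), with 3 not past the threshold. Mrpl50 was at 29.5, 28.3 and 25.8 CPM with LPS and at 41.7, 48 and 48 CPM with PE-CUR, a log2 fold change of 0.72 ± 0.08 (edgeR adjusted p = 2.28e-05), and Mrpl57 rose by 0.62. Mrpl42 had the widest PE-CUR spread of any member in this group, at 47.3, 52.1 and 45.1 CPM with LPS and 58.6, 79.9 and 73.2 CPM with PE-CUR, and a log2 fold change of 0.55 ± 0.11 (edgeR adjusted p = 0.00211). Mrpl41, Mrpl49, Mrpl37, Mrpl43, Mrpl9 and Mrpl30 rose by 0.50, 0.42, 0.38, 0.33, 0.31 and 0.23. The pair that sits in the large subunit under small-subunit names rose as well, Mrps18a from 26.8, 29.2 and 28.3 CPM to 38.1, 40.9 and 39.4 CPM (0.49) and Mrps30 from 33.9, 37.3 and 34.5 CPM to 48.1, 48.5 and 48.5 CPM (0.46).

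In the small subunit, the head, which holds the tRNA and moves during translocation, rose as a whole. All 8 listed members rose, with a median log2 fold change of 0.54. Mrps9 had 48.3, 45.7 and 46.4 CPM with LPS and 81.4, 82.6 and 77.7 CPM with PE-CUR, a change of 0.78 ± 0.06 (edgeR adjusted p = 1.21e-06). Mrps10, at 39.3, 42.1 and 38.3 CPM with LPS and 68.6, 67.0 and 67.9 CPM with PE-CUR, changed by 0.77 ± 0.06 (edgeR adjusted p = 2.05e-06). Both genes had groups that were far apart. Mrps14, Mrps33, Mrps35 and Mrps24 rose by 0.69, 0.61, 0.48 and 0.43 on the log2 scale, and Mrps7 and Mrps31 by 0.41 and 0.39.

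All 7 members listed as specific to mitochondria rose (median 0.50), although Mrps28 in this list has since been matched to bacterial S1 in the newer nomenclature. Mrps28 had the largest fold change of all 78 members. It was at 4.79, 5.67 and 6.14 CPM with LPS and at 13.2, 14.7 and 14.5 CPM with PE-CUR, a log2 fold change of 1.35 ± 0.13 (edgeR adjusted p = 4.69e-06). Mrps34, a protein needed for a stable small subunit, had 18, 20.0 and 18.2 CPM with LPS and 31.9, 33.4 and 34.0 CPM with PE-CUR, a change of 0.82 ± 0.08 (edgeR adjusted p = 4.89e-06). Mrps27, an RNA-binding protein of the pentatricopeptide repeat family, rose by 0.72, and Mrps26 and Mrps23 by 0.50 and 0.43. Mrps22 and Mrps25 rose by 0.27 and 0.25. The Mrps gene outside these groups, Mrps36, is counted here by its symbol and is also known as a subunit of the 2-oxoglutarate dehydrogenase complex. It was at 22, 25.3 and 23.2 CPM with LPS and at 26.5, 28.1 and 28 CPM with PE-CUR, without overlap, and had a log2 fold change of 0.23 ± 0.08 (edgeR adjusted p = 0.0271), a call lost without LPS replicate 1 (edgeR adjusted p = 0.059) or LPS replicate 3 (edgeR adjusted p = 0.0503).

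The body of the small subunit, with the decoding centre, was the most divided group: 6 of 11 members rose, 1 fell and 4 did not pass, with a median log2 fold change of 0.29. Mrps5, which lines the path of the incoming mRNA, had 30.8, 35.1 and 30.4 CPM with LPS and 58.0, 55.9 and 56.8 CPM with PE-CUR, a change of 0.83 ± 0.07 (edgeR adjusted p = 3.43e-06). Mrps15 and Mrps16 rose by 0.67 and 0.66 on the log2 scale, and Mrps18b, Mrps17 and Mrps2 by 0.48, 0.40 and 0.29. Whether this group differed from the others was not tested. The Mrps18 paralogues, descended from a single bacterial protein, did not move alike: Mrps18a and Mrps18b rose, while Mrps18c was at 31.7, 34.0 and 31.3 CPM with LPS and at 27.6, 30.4 and 30.3 CPM with PE-CUR. The Mrps18c groups did not overlap, yet its log2 fold change of -0.14 ± 0.07 missed the threshold in edgeR (adjusted p = 0.138). It passed with library size as the only scaling (edgeR adjusted p = 0.0419) and in limma fits of the authors' FPKM (adjusted p = 0.0147 to 0.0291).

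**Figure D3:**
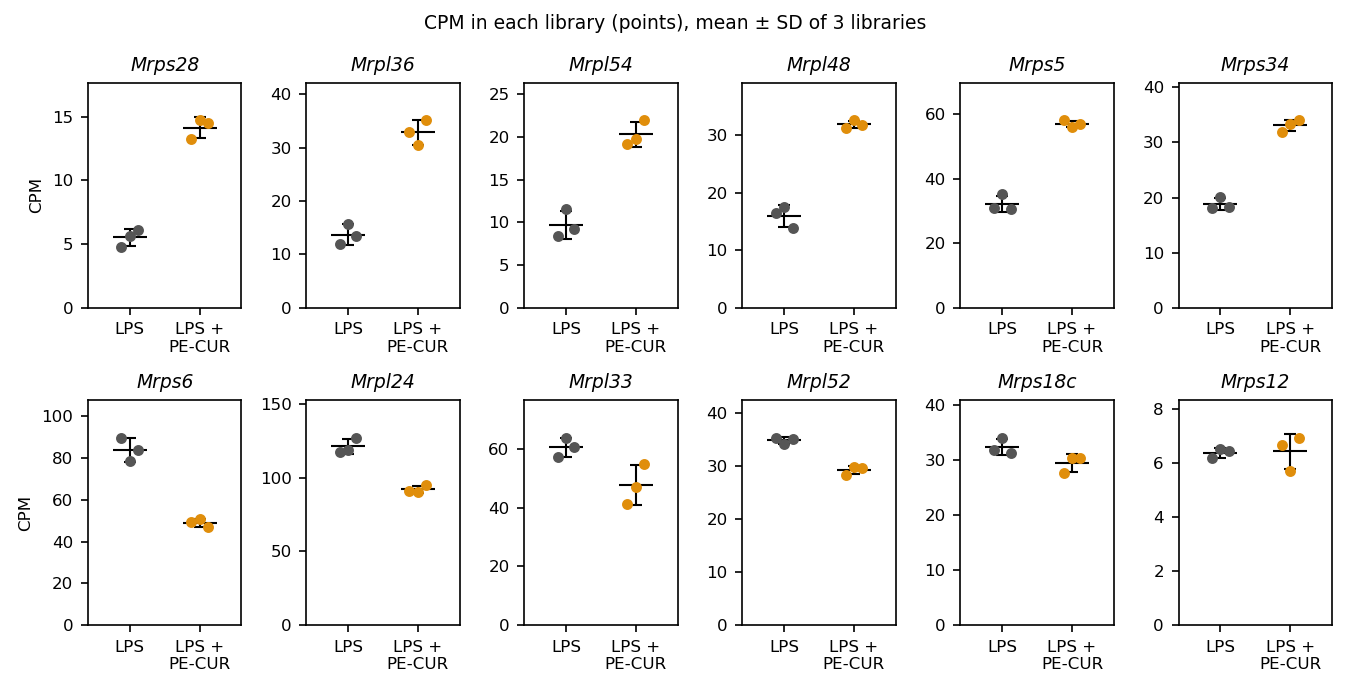
CPM of 12 members in each library (points), with the mean and SD of 3 libraries per group and axes that start at 0. The PE-CUR points of the 6 members in the upper row lie above all LPS points, those of Mrps6, Mrpl24, Mrpl33, Mrpl52 and Mrps18c lie below, and the Mrps12 groups overlap.

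The 4 members that fell were Mrps6, Mrpl24, Mrpl33 and Mrpl52. Mrps6, a protein of the small-subunit body, was at 89.8, 78.5 and 83.7 CPM with LPS and at 49.6, 50.8 and 47.0 CPM with PE-CUR. It is the only member called lower by at least 1.5-fold (19.1% of all tested genes), at a log2 fold change of -0.77 ± 0.07 (edgeR adjusted p = 3.29e-06). Per length it was the second most abundant member with LPS, at 110 FPKM, and ranked 7 with PE-CUR, at 61.8 FPKM. Its annotated exons share 159 bases with Slc5a3, the inositol transporter gene on the same strand, which itself went from 222 to 155 CPM in the mean without passing (log2 fold change -0.52, edgeR adjusted p = 0.0846). Slc5a3 passed without LPS replicate 2 (edgeR adjusted p = 0.0159) and in DESeq2 (adjusted p = 0.00104). How reads from the stretch shared with Slc5a3 were counted is not given in the sources used here. Mrps6 also shares 305 exon bases with Gm49711 on the same strand, a gene without a row in the counts.

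Mrpl24, an exit-tunnel protein, was at 118, 119 and 127 CPM with LPS and at 91.2, 90.6 and 95 CPM with PE-CUR, a log2 fold change of -0.39 ± 0.06 (edgeR adjusted p = 0.000139). Its exons share 594 bases with Rrnad1 on the opposite strand, which rose by 0.34. Mrpl33, the member with the highest FPKM in both groups, was at 57.3, 63.9 and 60.8 CPM with LPS and at 41.4, 47.2 and 55.0 CPM with PE-CUR (log2 fold change -0.34 ± 0.10, edgeR adjusted p = 0.0105). Its exons share 261 bases with Gm43809 on the same strand, a gene without a row in the counts. Mrpl52, of the central protuberance, was at 35.3, 34.1 and 35.0 CPM with LPS and at 28.3, 29.9 and 29.5 CPM with PE-CUR (log2 fold change -0.25 ± 0.07, edgeR adjusted p = 0.00715). None of the 4 had overlapping groups. The calls of Mrps6 and Mrpl24 held under every alternative tried. Mrpl33 was lost without LPS replicate 2 (edgeR adjusted p = 0.0725) or LPS replicate 3 (edgeR adjusted p = 0.0507), and Mrpl52 without LPS replicate 3 (edgeR adjusted p = 0.0525) or with no filter (edgeR adjusted p = 0.0647). Leaving out LPS replicate 3 thus took the falling Mrpl genes from 3 to 1.

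The 9 members that did not pass had log2 fold changes from -0.14 to 0.21, and 6 of them were above 0. Mrps12, the decoding-centre protein whose bacterial counterpart governs accuracy, was at 6.17, 6.52 and 6.44 CPM with LPS and at 6.65, 5.71 and 6.94 CPM with PE-CUR, a log2 fold change of 0.01 ± 0.13 (edgeR adjusted p = 0.948). Mrpl58, a peptidyl-tRNA hydrolase built into the large subunit, was at 21.1, 21.9 and 19.8 CPM and at 20.3, 21.5 and 21.7 CPM. In both genes the groups overlapped. Mrps21, Mrpl14, Mrpl32, Mrps11 and Mrpl55 had log2 fold changes of -0.05, -0.09, 0.11, 0.17 and 0.20. Mrpl51, at 39.2, 44.2 and 38.9 CPM with LPS and 43.8, 44.7 and 52.8 CPM with PE-CUR, had the smallest p of the 9 (0.21 ± 0.09, edgeR adjusted p = 0.0606) and passed in 6 alternatives. A missed threshold does not show that a gene was level.

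Levels per length differed widely between members although their products are used together. With LPS, mean FPKM ran from 3.24 (Mrpl14) to 133 (Mrpl33) around a median of 17.5. With PE-CUR it ran from 2.92 (Mrpl14) to 101 (Mrpl33) around a median of 26.5. Both extremes rest on the lengths implied by the authors' FPKM, 7525 bases for Mrpl14 and 466 for Mrpl33. In the GENCODE annotation, 106 bases make up 11.2% of the merged exons of Mrpl14, and 261 bases 3.6% of those of Mrpl33. There Mrpl33 is thus the longer of the pair, so the spread and the ranks depend on the annotation used. The order of members was largely kept, with Pearson's r of 0.954 and Spearman's rho of 0.968 between the groups over the 78 genes, which share the 6 libraries. Some members moved within it: Mrpl36 went from rank 47 to 24, Mrpl24 from 9 to 22. Change ran loosely against starting level (r = -0.44, rho = -0.34 over 78 genes), and both values use the same LPS libraries. By the lengths implied by the FPKM, members had a median of 1556.5 bases beside 3504 over all tested genes. This length ran with change at r = 0.18.

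Neighbouring and copied sequence touches many of these genes. In the GENCODE M21 annotation, 33 members share exon bases with another gene, and 20 have a pseudogene at least 95% identical over at least 200 bases. Neither applied to 33 members, of which 30 rose, 1 fell and 2 did not pass, with a median log2 fold change of 0.48. Mrps34 is a member with heavy overlap, sharing 63.4% of its exon bases with Mapk8ip3 on the opposite strand (log2 fold change -0.08) and 37% with Nme3 on its own strand. Mrps25 shares 69.8% with Nr2c2 on the opposite strand (0.02). Because the strand setting of the counting is not given in the sources used here, the values of such members are uncertain where a partner is abundant.

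Many members start head to head with another gene, on opposite strands and within 1000 bases of it. Of 31 such pairs with a tested partner that is not itself a member, 17 partners rose, 4 fell and 10 did not pass. The shares over all tested genes were 30.8% higher and 32.7% lower. Among pairs whose member rose, the partner rose in 13, fell in 3 and did not pass in 8. The fold changes of members and partners ran with r = -0.08 and rho = -0.15 over the 31 pairs, described here without a test. Sars2, the mitochondrial seryl-tRNA synthetase gene, was at 3.78, 4.30 and 5.14 CPM with LPS and 8.56, 9.45 and 10.5 CPM with PE-CUR (log2 fold change 1.10, edgeR adjusted p = 8.5e-05), 172 bases from the start of Mrps12, which was at 0.01. The opposite case is Apba3, an adaptor protein gene that lies 26 bases from Mrpl54 and had a log2 fold change of -0.02 beside 1.07. Ncapd2 (condensin), Eme1 (a DNA endonuclease subunit) and Ska3 (kinetochore) rose by 1.82, 1.79 and 1.70 beside 0.21, 0.65 and 0.62 in Mrpl51, Mrpl27 and Mrpl57.

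**Figure D4:**
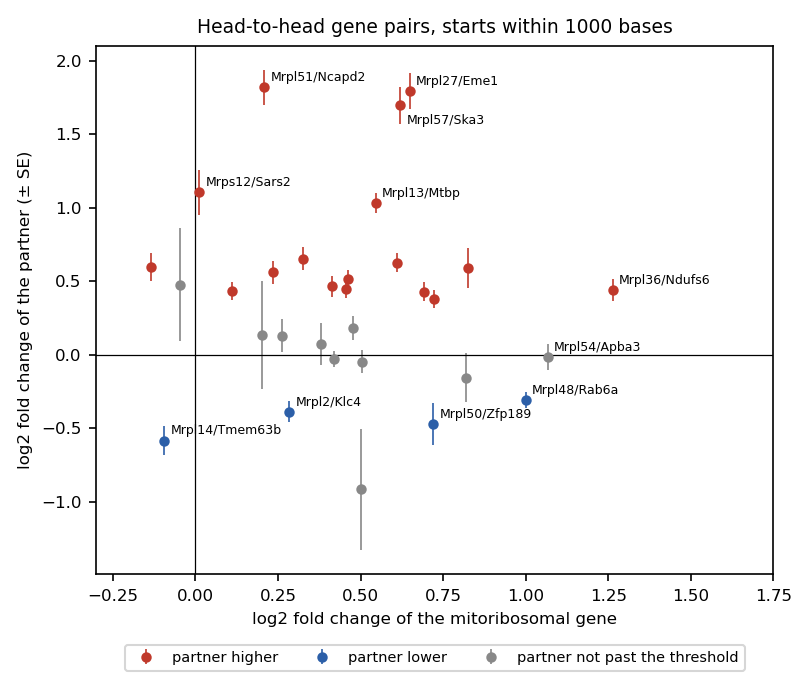
Log2 fold change of each member (horizontal) against that of its head-to-head partner (vertical, with bars of 1 SE), for 31 pairs. The points form no line: Mrps12/Sars2 stands at 0.01 and 1.10, and Mrpl54/Apba3 at 1.07 and -0.02.

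Genes that act with the mitoribosome were read from fixed lists in the same fit, beside 30.8% of all tested genes called higher and 32.7% lower. Of the 5 tested mitoribosome proteins with other symbols, 3 rose and none fell: Chchd1 by 1.26, Gadd45gip1 by 1.06 and Ptcd3 by 0.71. Dap3, a GTP-binding protein of the small subunit, had 110, 118 and 110 CPM with LPS and 119, 118 and 126 CPM with PE-CUR (0.10 ± 0.06, edgeR adjusted p = 0.14), and Aurkaip1 had a log2 fold change of 0.07. Of 15 mitochondrial translation factors, 9 rose and 2 fell (median 0.42). Tufm, the elongation factor that delivers aminoacyl-tRNA, went from 43.4, 50.9 and 46.9 CPM to 98.9, 85.6 and 88.2 CPM (0.95 ± 0.08, edgeR adjusted p = 2.15e-06). Gfm1, the translocase, and Tsfm, which recycles Tufm, rose by 0.71 and 0.62. The falling pair had small changes, Mtif3 (an initiation factor) at -0.27 and Mtfmt (which formylates the initiator tRNA) at -0.18. The call of Mtif3 was lost without any 1 of the LPS libraries or PE-CUR replicate 1 or 2 (edgeR adjusted p = 0.0557 to 0.118), and that of Mtfmt without any 1 of the 6 libraries (edgeR adjusted p = 0.0885 to 0.209).

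Of 27 tested assembly factors, 12 rose and 1 fell (median 0.29). C1qbp, a matrix protein linked to mitoribosome assembly, went from 109, 115 and 98.7 CPM to 230, 226 and 227 CPM, a change of 1.08 ± 0.06 (edgeR adjusted p = 2.37e-07). Rcc1l and Rpusd4, both known for work on the large-subunit rRNA, rose by 0.98 and 0.80, and Mettl17 fell by 0.29, a call lost without any 1 of the LPS libraries or PE-CUR replicate 3 (edgeR adjusted p = 0.0626 to 0.0969). Of 10 genes for transcription and replication of the mitochondrial genome, 6 rose and none fell (median 0.27), among them the helicase Twnk by 0.65, Ssbp1 by 0.36 and Tfb2m by 0.30. Tfam, which packages that genome, rose by 0.23 (edgeR adjusted p = 0.022), a call lost without LPS replicate 3 (edgeR adjusted p = 0.0558) or PE-CUR replicate 3 (edgeR adjusted p = 0.0661). The Tfam call was also lost with library size alone (edgeR adjusted p = 0.0602) and in the limma fits of FPKM (limma adjusted p = 0.0693 to 0.121).

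Among regulators of nuclear genes for mitochondria, 7 of 9 tested rose and 1 fell (median 0.39). Pprc1, a coactivator related to PGC-1alpha, was at 40.9, 39.3 and 38.7 CPM with LPS and at 92.6, 85 and 86.8 CPM with PE-CUR, a change of 1.15 ± 0.06 (edgeR adjusted p = 1.61e-07). Gabpa, Nrf1 and Yy1, whose motifs were searched above, rose by 0.70, 0.47 and 0.42. Myc fell, from 17.6, 18.4 and 21.5 CPM to 12.4, 14.2 and 15.1 CPM (-0.46 ± 0.11, edgeR adjusted p = 0.00341). Esrra had a log2 fold change of 0.01, and Ppargc1a was too low to be tested.

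Cytosolic ribosomal protein genes also rose, by less: 56 of 83 rose and 1 fell, with a median log2 fold change of 0.22 beside 0.46 for the mitoribosomal genes. Whether the lists differ was not tested. Rpsa, Rpl7a and Rpl8 rose by 0.77, 0.69 and 0.56, and Rpl22l1, a paralogue of Rpl22, fell by 0.85. The 13 protein genes that the mitochondrial genome encodes, which are what the mitoribosome translates, showed no common direction: 3 rose, 3 fell and 7 did not pass, with a median of -0.05. COX2, ND5 and ND6 were the higher genes, at 0.45, 0.25 and 0.75, and ATP6, ND4 and ND4L the lower ones, at -0.28, -0.20 and -0.38. COX2 and ND5 kept their call under every alternative that tested them, whereas ND6 lost it without LPS replicate 2 or 3 (edgeR adjusted p = 0.0942 and 0.0959). The fit without the mitochondrial and most abundant genes did not test them. The lower calls depended on single libraries: without LPS replicate 1 none of the 13 was lower, without LPS replicate 2 or 3 or PE-CUR replicate 1 or 2 only 1 was, and without PE-CUR replicate 1 the number higher was 5.

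**Figure D5:**
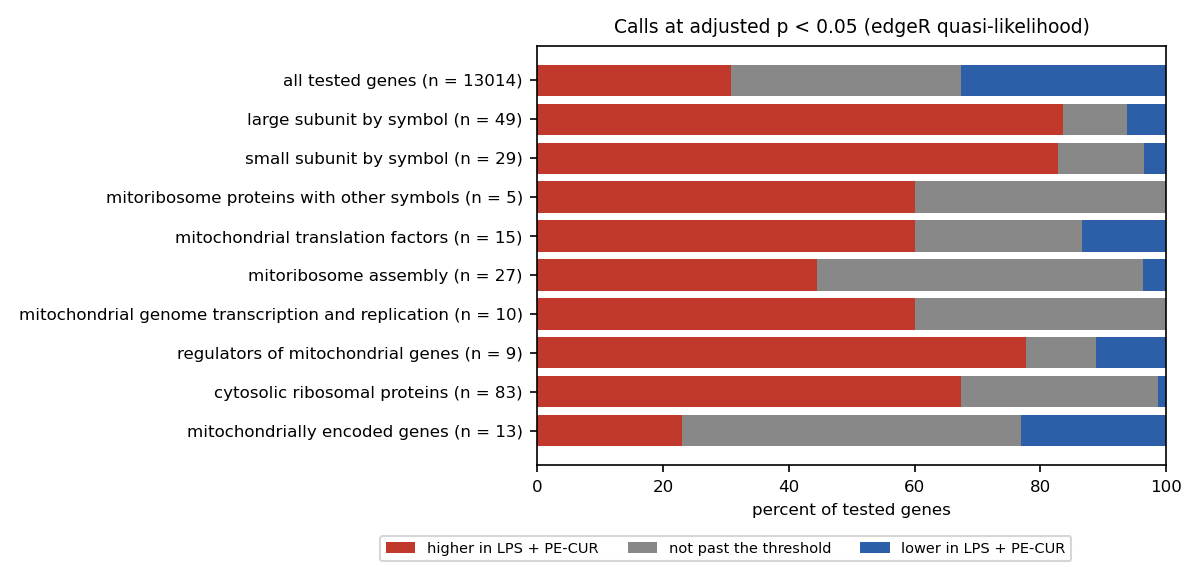
Percent of tested genes in each list called higher, not past the threshold or called lower with PE-CUR (edgeR). The share called higher is 83.7% for Mrpl and 82.8% for Mrps genes beside 30.8% of all tested genes, and the mitochondrially encoded genes have 23.1% each way.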

How the data were processed

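The genome build was mm10 and the tools included HTSeq, fastp, DESeq2 and SAMtools, per the submitters' processing notes. Not given in the sources used here: RNA selection, aligner, annotation and strand setting. The authors deposited whole-number read counts per gene symbol, and FPKM values per gene, which rescale the same counts by length and depth.

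From the counts, edgeR 4.0.16 in R 4.3.3 (filterByExpr, TMM scaling, robust quasi-likelihood test, two-sided, 3 against 3 libraries, no covariate) tested 13014 genes with Benjamini-Hochberg adjustment and a threshold of 0.05. The standard error was the log2 fold change divided by the square root of the F statistic. CPM use TMM-scaled library sizes, except for cell type markers, where raw totals were used. The script was tested on simulated data. The members and lists were chosen with earlier results of these data known, and no p-value was computed for a list. All members were accounted for. The rule for named members took, in each role, up to 4 called in the majority direction with the smallest p, up to 2 called the other way and the most abundant not called, then the 3 largest changes per subunit and a few set names; per-library values are given for part of these, and for Mrpl42, chosen after its values were seen. Neighbouring genes were named after their values were seen. The mitochondrially encoded genes, listed under symbols beginning with mt-, matched no row and were found under their RefSeq symbols, a choice made after seeing the table; the mitochondrial rRNA genes were not analysed here. Proteins of the Mrps18 paralogues were to be shown and are not. Markers of 7 further cell types were read, and each type's sum lay between 0 and 12.1 CPM in every library. Alternatives were median-ratio scaling, library size alone, no filter, a mean of at least 1 CPM, DESeq2 1.42.0 and limma 3.58.1 (voom, and log2(FPKM + 1) or log2(FPKM + 0.1)). The others were a replicate block, each library left out, and a fit with the mitochondrially encoded and 10 most abundant genes removed.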

Additional observations from a re-analysis of the deposited data

How the results depend on the processing

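Across 17 alternatives, 59 of the 65 rising members kept their call in all, 6 (Mrpl20, Mrpl21, Mrpl43, Mrps22, Mrps25 and Mrps36) lost it in at least 1, and no member reversed. The rising Mrpl genes numbered 38 to 42 and the rising Mrps genes 21 to 24. With 1 library left out, the falling Mrpl genes numbered 1 to 3 and the falling Mrps genes stayed at 1. Falling Mrps genes were 2 with library size alone and in all 3 limma fits of FPKM. The median log2 fold change of Mrpl and Mrps genes was 0.41 and 0.40 with library size alone, 0.52 and 0.51 with no filter, 0.39 and 0.38 with log2(FPKM + 1) filtered or not, and 0.41 and 0.40 with log2(FPKM + 0.1), and it ran from 0.47 to 0.57 and from 0.46 to 0.56 with 1 library left out. The upper ends came without LPS replicate 2. Log2(FPKM + 1) understates changes of low genes by construction.

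The lower calls in the comparison lists moved most. Falling translation factors were 1 with median-ratio factors, DESeq2, the replicate block or the fit without the mitochondrial and most abundant genes, 0 with no filter, and 0 to 1 with 1 library left out. Falling assembly factors were 3 with library size alone or the 1 CPM filter, 0 with no filter, 5, 5 and 4 in the limma FPKM fits, and 0 to 2 with 1 library left out. Falling cytosolic ribosomal protein genes were 2 with library size alone, the 1 CPM filter and the limma FPKM fits. Falling mitochondrially encoded genes were 6 with library size alone, 1 with no filter, 5 with the 1 CPM filter, 5, 6 and 5 in the limma FPKM fits, and 0 to 4 with 1 library left out, where rising ones were 2 to 5. The cause was not tested. The median of all 13014 genes moved by less than 0.1 under each scaling. It was -0.03 in the main fit, -0.09 with library size alone, 0.02 with no filter and -0.08 with log2(FPKM + 0.1). The medians of Mrpl and Mrps genes moved the same way in these settings.

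Same-numbered replicates did not deviate together (correlations -0.10, -0.18 and -0.05), so the numbers were not taken as pairs. With the replicate block, 41 Mrpl genes rose and 3 fell, and 24 Mrps genes rose and 1 fell, the counts without it. The number of libraries, 3 per group, limits the precision of each member's value; for Mrps12 the standard error was 0.13 on the log2 scale.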
